A study of Mus musculus with 6 samples.

Results

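CG dyads listed for both 5-hydroxymethylcytosine (5hmC) and 5-formylcytosine (5fC) on both strands were taken from 2 tables of listed cytosines in E14 mouse embryonic stem cells. A CG dyad is a CG dinucleotide with its complement, so it holds a cytosine on each strand. Members were chosen by listing, and so by reads: a dyad was kept when its plus and its minus cytosine were listed in the 5hmC table and again in the 5fC table, on chromosomes 1 to 19. This held for 563059 of 11410464 listed autosomal dyads, or 4.93%, and they are called fully double-marked dyads here. The name refers to listing only. Reads of the marks came from separate libraries of many cells, so no single molecule, allele or cell was shown to hold these states together. They made up 12.7% of the 4450086 dyads with 5hmC on both strands, 71.4% of the 789036 dyads with 5fC on both strands and 15.7% of the 3583163 dyads with both marks in any arrangement.

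E14 is an established line of mouse embryonic stem cells, grown here undifferentiated in medium with serum and LIF on gelatin, with no treatment or genetic change named in the labels. The 6 libraries of genomic DNA were made by Pvu-Seal-seq. A culture at passage 14 gave 2 libraries of each mark, and a separate one at passage 12 gave 2 more of 5hmC, each pair being technical replicates. Each table gives 1 pooled read count per cytosine and mark. No value therefore has a replicate error, no test between groups could be run, and whether passage 12 entered the 5hmC table is unstated in the labels. The autosomal totals were 260905804 reads at 20434856 listed cytosines for 5hmC and 101416586 reads at 6186387 for 5fC. Every listed cytosine had at least 2 reads. The 95% Wilson intervals given with shares cover counting error over dyads only.

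TET enzymes oxidise 5-methylcytosine to 5hmC and oxidise 5hmC further to 5fC, which the glycosylase TDG can excise. Methylation at CG is kept on both strands through replication by DNMT1 with UHRF1, whereas oxidised cytosines are copied poorly by DNMT1, so the state of a dyad can differ between its strands. The assay uses PvuRts1I, an enzyme that cuts DNA a short fixed distance downstream of a modified cytosine and does so best where a cytosine on the opposite strand lies at the far side of the cut. The labels do not say by which chemistry 5fC was separated from 5hmC, and carry-over of 5hmC into the 5fC table was not tested.

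The fully double-marked dyads with the most reads are shown first, and their depth is not typical of the set. Whether reads from several copies of a sequence were placed at these positions was not tested. Members were ranked by the smallest of their 4 read numbers. No mm9 genome was used here, so the letters are those that the listed cytosines themselves give through their dinucleotide and strand. The letter n marks a base that no listed cytosine gives. Each run covers 30 bases on either side of the dyad on the plus strand, and the capitals mark the dyad.
chr15:74917292-74917353: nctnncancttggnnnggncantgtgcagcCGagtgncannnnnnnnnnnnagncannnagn
chr2:98507382-98507443: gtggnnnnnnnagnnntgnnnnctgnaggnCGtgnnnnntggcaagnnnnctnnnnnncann
chr2:98506749-98506810: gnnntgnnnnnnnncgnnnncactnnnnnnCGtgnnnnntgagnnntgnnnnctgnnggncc
chr9:3022162-3022223: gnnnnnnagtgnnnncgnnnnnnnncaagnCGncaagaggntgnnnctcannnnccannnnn
chr2:98506983-98507044: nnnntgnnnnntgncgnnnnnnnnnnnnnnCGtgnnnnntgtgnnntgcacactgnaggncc

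The dyad on chromosome 15 at 74917322 had 8901 plus and 15303 minus reads of 5hmC and 12155 plus and 5805 minus reads of 5fC. On chromosome 2, the dyad at 98507412 had 5084 and 34564 reads of 5hmC against 33144 and 39181 of 5fC. The dyad at 98506779 had 4497 and 16187 reads of 5hmC against 7416 and 15467 of 5fC. In these and in the other 2 dyads the 5hmC reads were higher on the minus strand, while 5fC was higher on the plus strand at the chromosome 15 dyad. The dyad on chromosome 9 at 3022192 had 2738 and 38726 reads of 5hmC against 1359 and 8179 of 5fC. The dyad at 98507013 on chromosome 2 had 1111 and 29665 reads of 5hmC against 8873 and 13337 of 5fC. The 2 chromosome 2 dyads at 98506779 and 98507013 lay 234 bases apart, and 18 of the 19 flanking letters known in both were the same. The other pairs among the 5 dyads shared between 1 of 9 and 7 of 10 known letters. Such depth was rare: 123 fully double-marked dyads (0.0218%) had at least 100 reads on each of their 4 cytosines and 7 had at least 1000.

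The typical fully double-marked dyad had far fewer reads. The median dyad had 49 reads of 5hmC (interquartile range 32 to 72) and 35 of 5fC (24 to 52), summed over strands. The strands were alike over the whole set, with a median of 22 reads of 5hmC on the plus and 22 on the minus cytosine, and 16 of 5fC on each. The smallest of the 4 numbers was 8 at the median dyad. It was at least 5 in 77.7% of them and at least 10 in 39.5%. The weakest cytosine was one of 5fC in 57.2%, one of 5hmC in 38.6%, and tied between the marks in the rest. Although they were 4.93% of listed dyads, these dyads held 14.4% of all autosomal 5hmC reads at CG and 30.9% of those of 5fC. Reads chose the members, so these values describe the set and test nothing.

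The share of fully double-marked dyads among dyads with 5hmC on both strands depended on 5hmC reads. It was 1.55% at 4 to 7 reads, 6.54% at 16 to 31, 18.8% at 32 to 63 and 43.5% at 64 to 127. At 128 to 255 reads it was 71.4%, and 1.00% of such dyads had no 5fC listed. Among the 626 dyads with 256 or more 5hmC reads, 577 were fully double-marked (92.2%, interval 89.8 to 94.0%) and 0 lacked 5fC, which allows a share of up to 0.479%. Seen from 5fC the dependence was flatter, but the marks differed in depth. Autosomal reads at CG were 226389968 for 5hmC and 80060640 for 5fC, so the 2 views are not matched. Of dyads with 5fC on both strands, 54.3% were fully double-marked at 4 to 7 reads of 5fC and 91.5% at 256 or more.

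**Figure D1:**
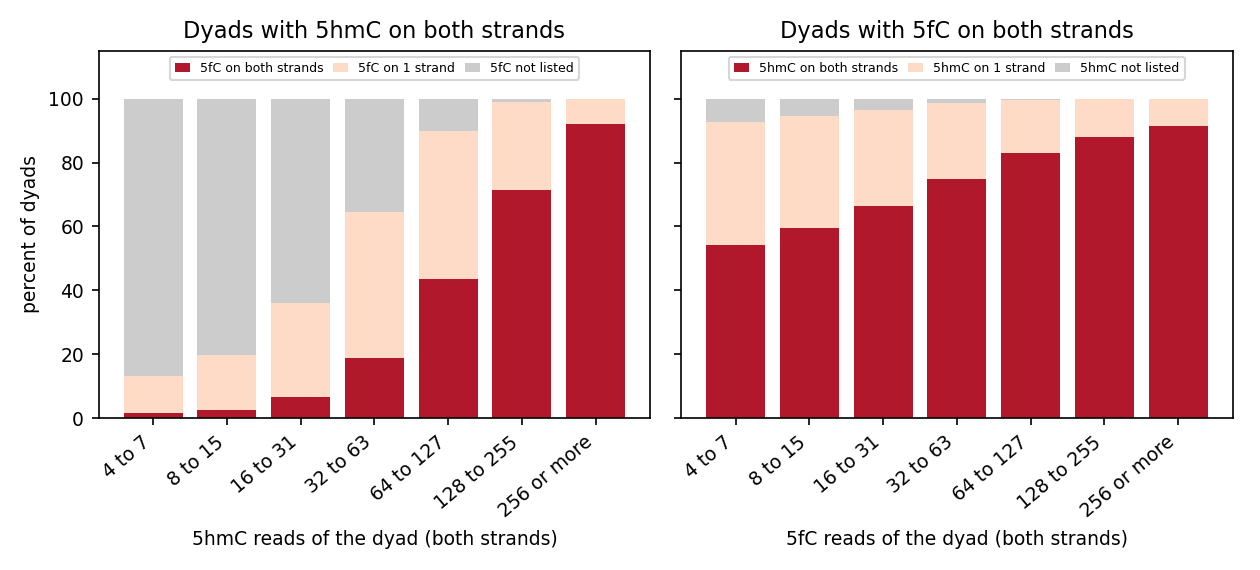
Stacked bars give the percent of dyads with 5hmC on both strands (left) or 5fC on both strands (right) in which the other mark was listed on both strands, on 1 strand or not at all, by the dyad's reads of the first mark. The dark part, the fully double-marked dyads, goes from 1.55% to 92.2% on the left and from 54.3% to 91.5% on the right.

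The listing itself is the threshold of the rule, and dyads on either side of it were set side by side. Just inside were 31043 fully double-marked dyads whose smallest number was 2, with medians of 31 reads of 5hmC and 23 of 5fC per dyad. Just outside were dyads with 3 of the 4 cytosines listed. In 1440718 dyads 1 cytosine of 5fC was missing, with medians of 33 reads of 5hmC and 13 of 5fC. In 206282 dyads 1 cytosine of 5hmC was missing, with medians of 22 reads of 5hmC and 29 of 5fC. Where the plus cytosine lacked 5fC, the median 5hmC reads were 11 on that strand and 20 on the other, and where the minus cytosine lacked it they were 11 and 20 again. Where 5hmC was missing on a strand, the median 5fC reads were 11 on that strand and 16 on the other. At the median, the cytosine missing for a mark thus lay on the strand with fewer reads of the other mark.

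The same relation held within the fully double-marked dyads, where no cytosine is missing. Of 536952 such dyads without a tie, 64.0% had more 5hmC and more 5fC reads on the same strand (interval 63.9 to 64.1%). The share varied little with depth, from 64.5% where the smallest number was 2 to 4, through 63.9% at 10 to 19, to 62.2% where it was 50 or more (59.6 to 64.7%). It was 57.1% where 5hmC differed between strands by up to 2-fold and 77.6% where it differed by more than 8-fold. For each dyad of that last group, 5fC reads on the strand richer in 5hmC were divided by those on the other. The median log2 ratio was 1.10. Neither strand was favoured: the plus cytosine had more reads in 49.1% of dyads for 5hmC and in 48.5% for 5fC.

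**Figure D2:**
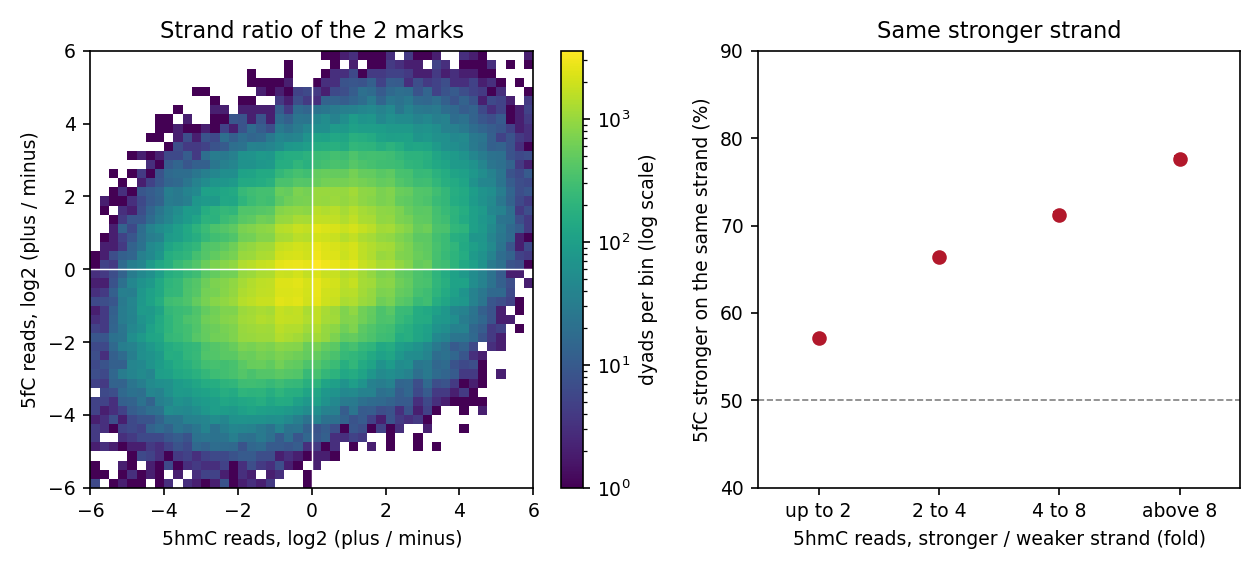
Left, the number of fully double-marked dyads by the log2 ratio of plus to minus reads of 5hmC (x axis) and of 5fC (y axis), in bins of 0.25 with values beyond 6 placed in the end bins. Right, the percent of dyads with more 5fC on the strand richer in 5hmC, by the fold between strands in 5hmC, with 95% Wilson intervals smaller than the points, going from 57.1% to 77.6% above the dashed line at 50%.

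Listing on both strands did not mean equal reads on both. 5hmC was within 2-fold between the strands in 46.4% of fully double-marked dyads and 5fC in 51.4%, while the strands differed by more than 4-fold in 24.2% and 17.8%. With at least 20 and at most 49 reads at the weakest cytosine, the shares within 2-fold were 74.3% and 75.2%, a direction that a higher minimum alone gives. Across the 563059 dyads, the reads of 5hmC and 5fC on the same cytosine had a Spearman correlation of 0.38 on either strand. Reads of 5hmC on one strand and 5fC on the other had correlations of 0.03 and 0.04. The plus and minus reads of a single mark had correlations of 0.04 for 5hmC and 0.12 for 5fC. These values describe dyads that share libraries, enzyme and sequence, and dyads are not replicates.

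The dyads were richer in 5fC relative to 5hmC than CG sites at large, which the requirement of 5fC on both strands favours. The ratio of 5fC to 5hmC reads per dyad was divided by the autosome-wide ratio at CG, 0.354. Its median was 2.09, with 1.39 and 3.23 at the quartiles and 0.490 and 11.1 at the 1st and 99th percentiles. The corresponding medians were 1.13 where 5fC was on 1 strand and 5hmC on both, and 3.86 in the opposite arrangement. Among fully double-marked dyads the median was between 2.01 and 2.76 in all 5 classes of the smallest read number. The ratio of the plus cytosine and that of the minus cytosine of the same dyad had a Spearman correlation of 0.07.

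Single dyads at the ends of this range were named by a fixed rule, among dyads with at least 20 reads on each cytosine. The highest ratio was 18.9 times the autosome-wide value, on chromosome 11 at 115250253, with 38 plus and 56 minus reads of 5hmC against 153 and 475 of 5fC. On chromosome 8 at 129791856 the ratio was 18.5 times, from 28 and 22 reads of 5hmC and 264 and 64 of 5fC. On chromosome 7 at 5873583 it was 18.2 times, from 36 and 28 reads of 5hmC and 288 and 125 of 5fC. In each of these 3 dyads both strands had more 5fC than 5hmC reads. The lowest ratio was 0.323 times, on chromosome 11 at 34444850, with 259 and 346 reads of 5hmC against 36 and 33 of 5fC. It was 0.364 times on chromosome 8 at 20013073, from 189 and 471 reads of 5hmC and 33 and 52 of 5fC. It was 0.386 times on chromosome 9 at 3022765, from 698 and 34 reads of 5hmC and 60 and 40 of 5fC, where the minus strand alone had slightly more 5fC than 5hmC. No gene is named at these positions because no mm9 annotation was used here.

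Other listed cytosines stood at a fixed place around fully double-marked dyads. Downstream of each cytosine of a dyad, the opposite strand was searched for a cytosine listed for either mark. With 21 bases in between, 19.1% of the dyads' cytosines had one, with 22 bases 17.5%, with 23 bases 10.3% and with 20 bases 9.34%. At 19 bases the share was 1.61% and at 24 bases 2.07%, and from 4 to 60 bases outside this neighbourhood it lay between 1.08% and 2.87%. On the same strand as the dyad's cytosine, shares at 20 to 23 bases were 2.09% to 3.16%. The large peak was on the opposite strand. A much smaller rise was seen on the same strand, with 2.77% at 19 bases, 3.16% at 20 and 3.04% at 21, against 2.00% at 24. There were 633774 pairings of a dyad's cytosine with such a partner at 20 to 23 bases. A partner of several dyad cytosines was counted once for each. The partner was CA in 33.7% of pairings, CT in 28.3%, CG in 19.6% and CC in 18.3%. Both marks were listed at the partner in 42.8% of pairings, 5hmC alone in 47.2% and 5fC alone in 9.93%.

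Such a partner at 20 to 23 bases was listed on at least 1 side of 75.9% of fully double-marked dyads: 47.1% had it on 1 side and 28.8% on both. Where 5fC was on 1 strand, 43.7% and 16.3% of dyads had it on 1 side and on both. Without 5fC the values were 28.4% and 5.74%. Reads also differed between these classes, so dyads within the same 2-fold class of 5hmC reads were compared. At 32 to 63 reads, a partner was listed for 76.7% of fully double-marked dyads (interval 76.5 to 76.8%), 67.5% of those with 5fC on 1 strand (67.4 to 67.6%) and 56.1% of those without 5fC (55.9 to 56.2%). At 64 to 127 reads the values were 84.9%, 79.8% and 74.1%, and at 8 to 15 reads 52.2%, 37.8% and 20.5%. The order of the 3 kinds of dyad was the same in each class of reads. Within a class reads still differed, with medians of 46, 43 and 39 reads of 5hmC at 32 to 63. Matching on 5hmC does not match 5fC reads, and no replicate error stands behind these differences.

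**Figure D3:**
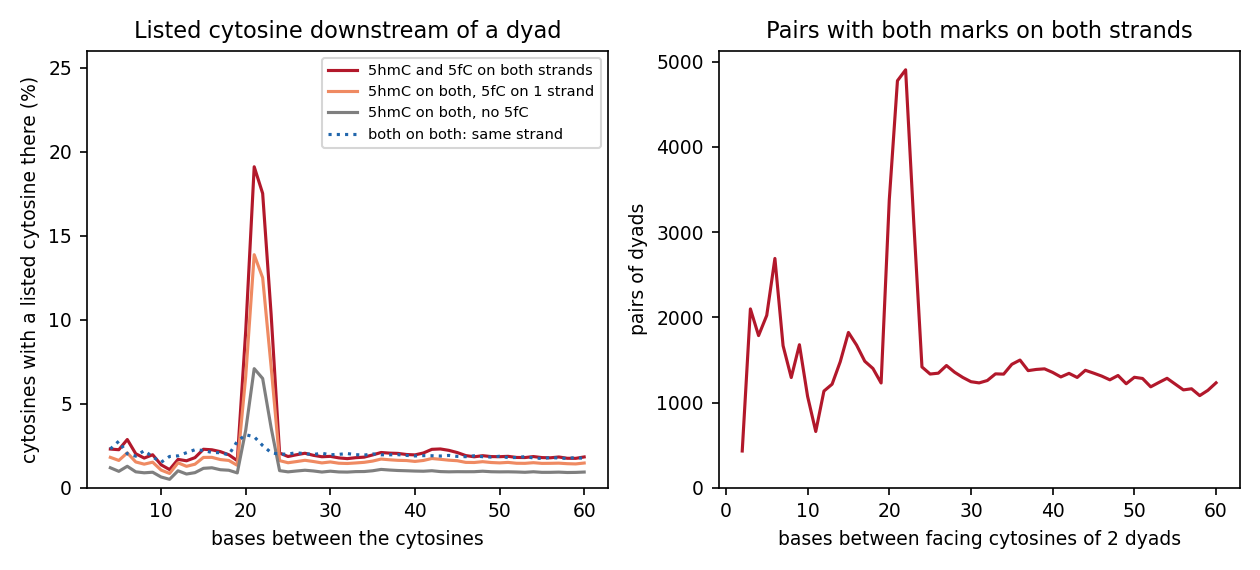
Left, the percent of dyad cytosines with a listed cytosine downstream on the opposite strand (solid lines, 3 classes of dyads) or the same strand (dotted, fully double-marked dyads), by the number of bases in between. Right, the number of pairs of fully double-marked dyads by the bases between their facing cytosines; both panels peak at 20 to 23 bases.

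The strand facing a partner had more reads. Cytosines of fully double-marked dyads with a partner had a median of 28 reads of 5hmC (interquartile range 16 to 44), and those without one 16 (8 to 30). For 5fC the medians were 18 (10 to 30) and 14 (9 to 23). In the 265233 dyads with a partner on 1 side, the strand on that side had more 5hmC reads in 69.3% of untied dyads (interval 69.2 to 69.5%) and more 5fC reads in 58.7% (58.5 to 58.8%). Partners are listed from the same libraries, so these shares join 2 readings of the same digestion. There were 135456 dyads without a listed partner, and the marks shared their stronger strand in 61.7% of the untied ones (61.4 to 62.0%). Of untied dyads with partners on both sides, 64.6% did. Cytosines that were not listed could not be counted as partners.

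Read numbers of a dyad's cytosine and its partner were related at these distances for 5hmC. The Spearman correlation was 0.28, 0.33, 0.33 and 0.22 at 20, 21, 22 and 23 bases, and between -0.07 and 0.07 at the other distances from 4 to 60 bases. For 5fC it was between 0.12 and 0.16 at these distances and between 0.03 and 0.12 at the others. At 20 to 23 bases the numbers were equal in at most 1.81% of 5hmC pairs and 2.75% of 5fC pairs. Whether a cytosine and its partner were counted from the same reads was not tested. Partners had a median of 8 to 11 reads of 5hmC, against 26 to 32 at the cytosines of the dyads. For 5fC the medians were 15 to 16 against 18 to 20. Lower 5hmC reads were not particular to these distances: with 30 bases in between, the medians were 10 and 21.

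Fully double-marked dyads were also found at this distance from each other. With 20 to 23 bases between facing cytosines there were 16168 pairs, between 3109 and 4904 at each distance, against 1082 to 1823 at each distance of 12 to 19 and of 24 to 60 bases. Of dyads with 5hmC on both strands found 20 to 23 bases from a fully double-marked dyad, 40.3% were themselves fully double-marked (interval 39.8 to 40.8%), and 31.7% at 12 to 19 and 24 to 60 bases (31.5 to 32.0%). At 2 to 9 bases there were 432 to 2691 pairs at each distance, and 1073 and 661 at 10 and 11 bases. The share at 2 to 9 bases was 40.4%, as high as at 20 to 23. These shares were not matched for 5hmC reads. In the 16168 pairs the cytosines that faced each other had a median of 30 reads of 5hmC and 24 of 5fC, and those that faced away 19 and 17. In 21634 pairs at 25 to 40 bases the medians were 22 and 18 for facing cytosines and 20 and 18 for the others. The 5hmC reads of facing cytosines had a Spearman correlation of 0.51 at 20 to 23 bases and 0.02 at 25 to 40.

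Fully double-marked dyads had others of their kind nearby. The nearest lay at a median distance of 248 bases, within 100 bases for 33.9% and beyond 10000 bases for 2.72%. Such closeness was not particular to them. Of dyads with 5fC on both strands and 5hmC on 1, 38.1% had a fully double-marked dyad within 100 bases, and of those with 5fC on both strands and no 5hmC 40.3%. When the next listed dyad lay 2 to 10 bases away and had 5hmC on both strands, it was fully double-marked in 40.3% of cases (interval 39.7 to 40.8%). After a dyad with 5fC on 1 strand the share was 21.7%, and after one without 5fC 8.65%, against 12.7% of all dyads with 5hmC on both strands. At 51 to 100 bases the shares were 29.0%, 17.6% and 8.61%, and at 501 to 1000 bases 12.2%, 8.52% and 5.73%. Among dyads with 32 to 63 reads of 5hmC the order was the same, and a fully double-marked dyad lay within 100 bases of 33.8%, 19.3% and 9.71% of them. With sites of at least 10 reads alone, which leaves fewer dyads to be neighbours, 17.9% of fully double-marked dyads had another within 100 bases.

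**Figure D4:**
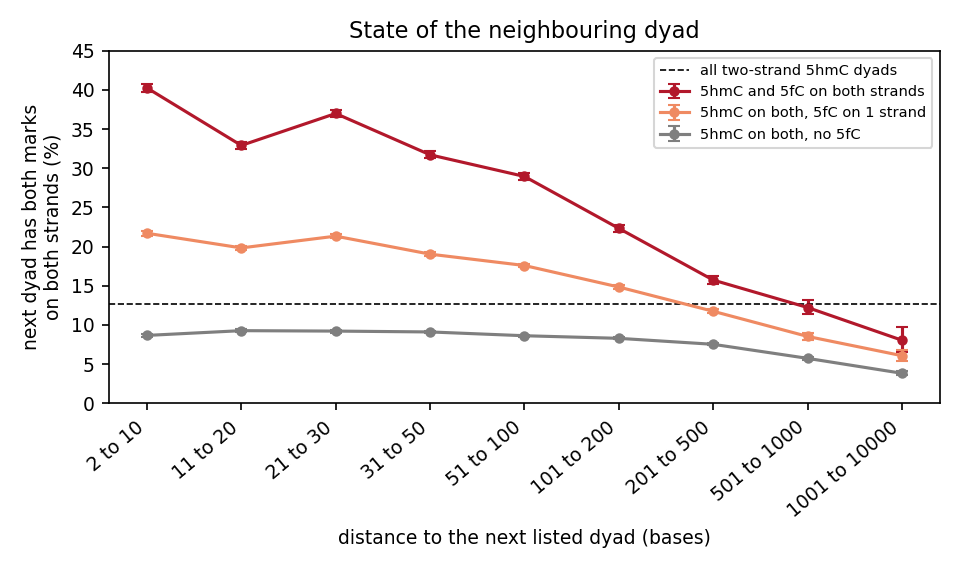
The percent of neighbouring dyads that were fully double-marked, by the distance to the next listed dyad and the class of the first dyad, where the next dyad had 5hmC on both strands; bars are 95% Wilson intervals. The line for fully double-marked dyads goes from 40.3% at 2 to 10 bases to 8.04% at 1001 to 10000 bases and lies above the others at each distance, with overlapping intervals at the last.

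Linking dyads at most 100 bases apart left 371940 of them single, 66.1% of all. A further 125698 stood in pairs and 62530 in chains of 3 to 5. There were 411 chains of 6 to 9 and 13 chains of 10 to 51. The ratio of summed 5fC to 5hmC reads, relative to the autosomes, was 2.02 for single dyads, 2.34 for pairs and 2.53 for chains of 3 to 5. It was 1.73 in the 13 longest.

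The longest chain held 51 fully double-marked dyads in 892 bases of chromosome 11, from 3093010 to 3093901, close to the centromeric end of the assembled sequence. It took in 51 of the 57 dyads listed there. Per dyad, 5hmC reads ran from 15 to 1581 with a median of 342, and 5fC reads from 39 to 1154 with a median of 256. For this chain and the other long ones, placement of reads from several copies of a sequence was not tested. Its first 300 bases show how tightly such dyads can follow each other. The 20 fully double-marked dyads are in capitals, 39.7% of letters are known from listed cytosines, and n marks the rest.
chr11:3093010-3093309: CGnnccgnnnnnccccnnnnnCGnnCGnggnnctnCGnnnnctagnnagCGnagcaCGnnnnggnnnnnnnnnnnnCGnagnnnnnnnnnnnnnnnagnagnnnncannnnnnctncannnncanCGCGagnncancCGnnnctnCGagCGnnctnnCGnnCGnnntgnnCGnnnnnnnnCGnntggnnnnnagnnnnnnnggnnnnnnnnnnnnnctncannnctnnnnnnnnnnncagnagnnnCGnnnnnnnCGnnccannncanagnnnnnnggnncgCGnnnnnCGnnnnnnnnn

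The next 3 chains lay within 6 kb of each other on chromosome 17. They held 29 dyads from 39980801 to 39981798, 19 from 39979988 to 39980430 and 13 from 39985351 to 39985677. In the first of these, 103 dyads were listed and 59 had 5hmC on both strands, so fully double-marked dyads were less dense among listed ones than in the chromosome 11 chain. The fifth chain, with 12 dyads, lay on chromosome 11 from 117866541 to 117866938. It had 559 reads of 5fC and 439 of 5hmC, a ratio 3.60 times the autosome-wide value, while the other 4 lay between 1.28 and 1.83 times.

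Along the genome the dyads were unevenly spread over chromosomes. Chromosome 11 held 65134 and chromosome 8 held 53206, or 535 and 404 per Mb. The other 17 autosomes had between 153 and 274 per Mb. Relative to dyads with 5hmC on both strands, chromosome 11 had a share of 18.9% and chromosome 8 one of 17.2%, where the others ranged from 10.5% to 12.9%. Both chromosomes also had more reads at these dyads, with a median of 59 reads of 5hmC against 46 to 48. At 8 to 15 reads of 5hmC the shares were 4.48% on chromosome 11, 3.61% on chromosome 8 and 2.49% on the others together. At 32 to 63 reads they were 20.8%, 19.7% and 18.5%, and at 64 to 127 reads 45.4%, 44.6% and 43.0%. Among these 3 classes of reads the difference, as a fold, was widest in the lowest. The median 5fC to 5hmC ratio at the dyads was lower on both, 1.95 and 1.93 times the autosome-wide value against 2.11 to 2.18. At most 2 cultures stand behind these values, and a difference in copy number of a chromosome in these cells was not tested.

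The share also followed the density of 5hmC along each chromosome. Windows of 100 kb were placed in 10 groups by their number of dyads with 5hmC on both strands. The share of fully double-marked dyads among these was 3.04% in the sparsest group and 18.3% in the densest. Within each of the 19 chromosomes it was higher in the densest group than in the sparsest, by 2.70-fold to 7.29-fold with a median of 5.64-fold. With sites of at least 10 reads alone, the difference over all autosomes was 3.32-fold. At 64 to 127 reads of 5hmC the share was 36.0% in the sparsest group and 45.9% in the densest, while at 8 to 15 reads it was 0.434% and 5.18%. The same order was seen around single dyads. With at most 4 listed dyads within 1000 bases the share was 3.49%, and with 40 or more 22.3%.

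**Figure D5:**
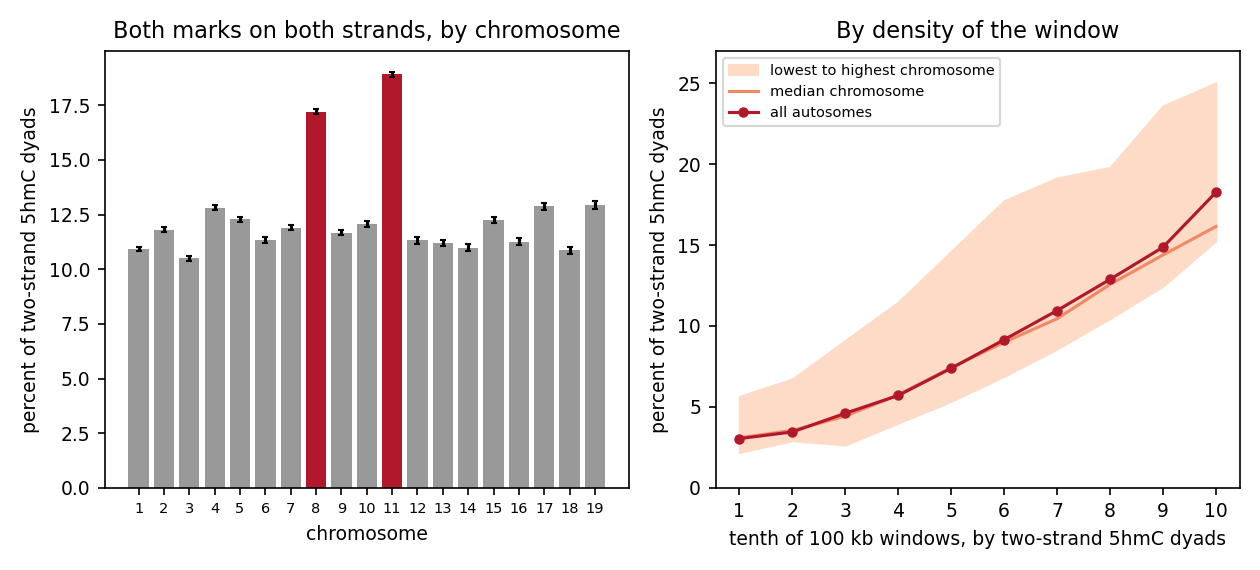
Left, fully double-marked dyads as a percent of dyads with 5hmC on both strands, by chromosome, with 95% Wilson intervals and chromosomes 8 and 11 in the darker colour. Right, the same share by group of 100 kb windows (10 equal groups) from the fewest to the most such dyads, for all autosomes (points), the median chromosome (line) and the range over 19 chromosomes (band), going from 3.04% to 18.3%.

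Fully double-marked dyads were found in 21384 of 23893 windows of 100 kb, with a median of 12 per window. The 10% of windows with the most held 37.9% of them, while the 10% with the most dyads with 5hmC on both strands held 24.8% of those. The most, 358, were in chromosome 11 from 3000001 to 3100000, which also had the highest share: 74.1% of its dyads with 5hmC on both strands (interval 70.0 to 77.8%). Its median fully double-marked dyad had 341.5 reads of 5hmC. Next by number were chromosome 11 from 117900001 to 118000000 with 271 and chromosome 8 from 119800001 to 119900000 with 240, where the shares were 29.5% and 30.3% and the median 5hmC reads 58 and 57. By share, chromosome 17 followed, from 6400001 to 6500000 with 65 of 136 (47.8%, 39.6 to 56.1%) and from 39900001 to 40000000 with 109 of 235 (46.4%, 40.1 to 52.8%). The latter window contains the 3 chains described on that chromosome.

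At the other end, 6 of the 14858 windows with at least 100 dyads hydroxymethylated on both strands held no fully double-marked one, and the first 3 in chromosome order are named. Chromosome 1 from 56600001 to 56700000 had 0 of 116, which allows a share of up to 2.59%. Chromosome 2 from 140600001 to 140700000 had 0 of 107 (up to 2.80%) and chromosome 3 from 55600001 to 55700000 had 0 of 109 (up to 2.75%). The ratio of 5fC to 5hmC reads at all CG sites of these windows was 0.456, 0.602 and 0.424 times the autosome-wide value. In windows with at least 100 such dyads, the share was 11.5% at the median, and 4% at the 5th percentile. These windows were picked for their low share, so it is given as a description.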

How the data were processed

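Genomic DNA of E14 cells was profiled by Pvu-Seal-seq in 6 libraries. The authors deposited 1 table per mark, each holding raw read counts (whole numbers) at listed cytosines, with libraries already pooled. Per the submitters' processing notes, CASAVA, bcl2fastq, cutadapt and Bowtie were used with build mm9; versions are not named. The sources do not say how cut ends led to a cytosine or what made a site common. The 5hmC table was taken to be that of passage 14, because its name carries the culture number of those libraries. The descriptions of the passage 12 libraries of 5hmC name the same table.

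Positions are 1-based mm9 coordinates of the plus cytosine. Reads of each dyad were taken from both tables and dyads were sorted by the strands listed per mark. The distance of 20 to 23 bases was taken as the number of bases between the cytosines, a reading fixed after its profile was seen. Letters given by listed cytosines covered 33660936 autosomal bases, with 0 conflicts. The supplied gene and promoter tables are of another build and were not used. Members, lists and rules were chosen with earlier results of these data known.

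Named were the 5 dyads with the largest smallest-of-4 count, the 3 highest and 3 lowest ratios with at least 20 reads per cytosine, the 5 longest chains linked at 100 bases, and windows of 100 kb by number (3) and by highest and lowest share (3 each) with at least 100 dyads with 5hmC on both strands. Positions on chromosome 18 are not named. No p-values are given, since dyads are not replicates. Alternatives were at least 5 or 10 reads per site, no site above 1000 reads, chromosomes 8 and 11 left out, chromosomes X and Y added, and other distances. The counting functions passed 7 of 7 checks on simulated data with 103313 dyads. Simulated partners were placed only downstream of the plus cytosine, so finding partners on the minus side was not checked. Python 3.11.15, numpy 2.4.6, pandas 2.3.3 and scipy 1.17.1 were used.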

Additional observations from a re-analysis of the deposited data

Results flagged for a closer look

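Chromosomes X and Y lie outside the autosomal rule and are listed because their number exceeds the 3 that an observed 0 would allow, which background can exceed too. Chromosome X held 2676 dyads with both marks on both strands, 4.28% of its 62579 dyads with 5hmC on both strands (interval 4.12 to 4.44%), or 16.1 per Mb. Their medians were 34 reads of 5hmC and 31 of 5fC. Chromosome Y held 76 such dyads, 13.4% of 568 (10.8 to 16.4%), with medians of 222.5 and 89.5 reads. On the autosomes the share was 12.7% and the medians were 49 and 35. These shares were not matched for reads, and differences in copy number from the autosomes were not tested.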

How the results depend on the processing

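No paired analysis was possible because the libraries of each table were pooled before deposit, and for the same reason no library could be left out. With at least 10 reads per site, 222505 fully double-marked dyads were left. Their share among dyads with 5hmC on both strands was 13.8% with at least 5 reads per site, 14.4% with at least 10, 11.7% without chromosomes 8 and 11 and 12.5% with X and Y. The shared stronger strand was 63.8% with at least 5 reads, 63.7% with at least 10 and 63.7% without chromosomes 8 and 11. The median 5fC to 5hmC ratio was 2.05 and 2.01 times the autosome-wide value with at least 5 and 10 reads, 2.11 without sites above 1000 reads, 2.19 without chromosomes 8 and 11 and 2.10 with X and Y. Another fully double-marked dyad within 100 bases was found for 28.6% and 17.9% with at least 5 and 10 reads, for 31.3% without chromosomes 8 and 11, and within 50 and 200 bases for 23.3% and 46.0%. A partner was listed for 71.7% and 63.3% with at least 5 and 10 reads, 75.2% without chromosomes 8 and 11, 77.2% at 19 to 24 bases and 13.3% at 30 to 33 bases. Counting the distance from cytosine to cytosine, which means 19 to 22 bases between, gave 68.6%. This reading and the settings of the density result were chosen after seeing the data. Between the densest and the sparsest of 10 groups of windows, the share differed 3.32-fold with at least 10 reads, against 18.3% over 3.04% as reported. Intervals over so many dyads are so narrow that small moves are listed too. The causes of these moves were not tested.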

Other observations

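A CC cytosine listed directly before the CG, on either strand, was found at 2.90% of fully double-marked dyads, 1.90% of dyads with 5fC on 1 strand and 5hmC on both, and 0.909% of dyads with 5hmC on both strands and no 5fC. At 64 to 127 reads of 5hmC the shares were 3.77%, 3.26% and 2.87%, a smaller gap than over all reads.

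Towards the ends of the chromosomes the share of fully double-marked dyads was again counted among dyads with 5hmC on both strands. It was 13.5% in the first Mb of listed sequence (interval 13.1 to 13.9%) and 12.8% beyond 20 Mb from it. Without chromosomes 8 and 11 the first Mb gave 10.2% against 11.9% beyond 20 Mb. In the last Mb it was 11.8%, and 15.0% from 1 to 5 Mb before the last listed base, or 11.5% and 13.2% without chromosomes 8 and 11.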
